A study of Mus musculus with 27 samples.

Results

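The genes described here are 6 effector genes of alternatively activated mouse macrophages, the state that interleukin-4 (IL-4) produces. Retnla, Chil3 and Rnase2a encode secreted proteins, and Mgl2, Mrc1 and Clec7a encode C-type lectin receptors of the cell surface. They were taken by symbol from a table of 19069 named genes, all 6 were found, and all 6 were among the 13297 genes that passed the filter on low values. They were followed through 27 libraries of macrophages that were irradiated, or not, as bone marrow cells and were later polarized.

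Bone marrow of femur and tibia came from C57BL/6 mice (strain given as C57/B6). The cells received 5 Gy of FLASH protons (delivered at ultra-high dose rate), 5 Gy from a standard proton beam, or 0 Gy. All were then cultured with mouse CSF-1 at 10 ng/ml for 7 days, which drives macrophage differentiation. For 2 further days they received IL-4 at 20 ng/ml (labelled M2), LPS at 100 ng/ml (labelled M1) or control medium (labelled M0). Each of the 9 groups has 3 libraries. No irradiated group was exposed as a finished macrophage, because the beam preceded CSF-1. The labels do not say whether the libraries of a group came from separate mice or cultures. The p-values therefore stand for library-to-library spread, which may be technical.

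IL-4 binds receptors that activate JAK kinases and the transcription factor STAT6, and STAT6 switches on a set of macrophage genes used in type 2 immunity, defence against worms and tissue repair. Retnla (RELMα) is a secreted cysteine-rich protein of the resistin-like family, and Chil3 (Ym1) is a secreted chitinase-like protein that has lost enzyme activity. Rnase2a is a secreted ribonuclease of the eosinophil-associated family. Mgl2 binds galactose-type sugars and also marks some dendritic cells, Mrc1 (the mannose receptor, CD206) takes up mannose-bearing glycoproteins, and Clec7a (Dectin-1) senses fungal β-glucan and signals through the kinase Syk.

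The promoters are shown for the 4 members that hold letters of a STAT or C/EBP pattern, since STAT6 carries the IL-4 signal. Each is the 250 bases before the annotated start in RefSeq (GRCm38.p6), written on the gene's strand, with matched letters in capitals. All 6 members had an entry. The stretches are chr16:48842359-48842608 on the plus strand for Retnla, chr3:106167565-106167814 on the minus strand for Chil3, chr14:51256113-51256362 on the minus strand for Rnase2a, and chr6:129472780-129473029 on the minus strand for Clec7a.
Retnla: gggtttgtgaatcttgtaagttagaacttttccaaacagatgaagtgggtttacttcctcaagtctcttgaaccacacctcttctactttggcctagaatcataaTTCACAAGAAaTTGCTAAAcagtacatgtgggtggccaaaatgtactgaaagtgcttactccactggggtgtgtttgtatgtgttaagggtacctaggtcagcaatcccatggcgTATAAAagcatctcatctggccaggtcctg
Chil3: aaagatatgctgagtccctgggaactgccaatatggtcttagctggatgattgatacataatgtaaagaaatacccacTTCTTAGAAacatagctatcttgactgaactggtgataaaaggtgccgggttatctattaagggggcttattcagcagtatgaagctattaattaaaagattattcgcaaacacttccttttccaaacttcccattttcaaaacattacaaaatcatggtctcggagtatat
Rnase2a: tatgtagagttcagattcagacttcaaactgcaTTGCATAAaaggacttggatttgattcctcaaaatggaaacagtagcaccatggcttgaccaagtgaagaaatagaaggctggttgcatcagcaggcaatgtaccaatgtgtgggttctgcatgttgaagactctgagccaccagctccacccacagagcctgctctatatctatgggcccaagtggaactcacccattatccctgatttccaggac
Clec7a: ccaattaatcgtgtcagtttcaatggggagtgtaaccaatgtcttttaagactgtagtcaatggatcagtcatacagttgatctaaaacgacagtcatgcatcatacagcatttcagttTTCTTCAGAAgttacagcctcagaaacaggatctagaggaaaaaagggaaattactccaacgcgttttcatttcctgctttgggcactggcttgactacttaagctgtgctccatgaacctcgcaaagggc
The spacing that STAT6 is known to prefer, TTC and GAA set 4 bases apart, occurred in Retnla as TTCACAAGAA, 145 to 136 bases before the start, and in Clec7a as TTCTTCAGAA, 131 to 122 bases before the start. On either strand it occurred in 5.9% of 27025 promoters of the same length. Chil3 held the shorter STAT spacing TTCNNNGAA as TTCTTAGAA, 172 to 164 bases before its start, against 7.2% of all promoters. The C/EBP pattern TTGCNNAA occurred in Retnla 134 to 127 bases before the start, next to its STAT letters, and in Rnase2a 217 to 210 bases before the start, against 9.6% of all promoters. A TATA box, TATAAA, occurred in Retnla 30 to 25 bases before the start, against 13% of all promoters. The Mgl2 and Mrc1 windows held none of these letters, which says only that they are not in this window.

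Libraries held 20.68 to 25.84 M assigned reads (M, 1e+06), with 11577 to 12127 genes at 1 CPM or more. Values are CPM, reads per 1e+06 assigned reads, scaled between libraries. Members ranged from Rnase2a at its lowest, 0.867 CPM, to Chil3 at its highest, 7426 CPM. All 20 genes of a macrophage core list were found and none was at 0 in any library. In these bulk libraries, fewer cells that express a gene and less of its RNA per cell cannot be told apart.

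A check of the labels comes before the results, because it decides how the irradiated groups can be read. Each library was placed on an IL-4 axis and an LPS axis, each made of 100 genes that rose with that agent in non-irradiated cells and that exclude the 6 members. On each axis, 0 is the mean of non-irradiated control-medium libraries and 1 the mean of non-irradiated libraries with the agent. On these axes 22 libraries followed their labels and 5 did not, all of them irradiated replicate 1 libraries. IL-4 positions were high, at 0.702 and 0.775, in the libraries labelled FLASH M0 replicate 1 and standard M1 replicate 1. In the libraries labelled FLASH M2 replicate 1 and standard M2 replicate 1, LPS positions were high, at 0.869 and 0.857, and IL-4 positions were -0.206 and -0.253. Both positions were near 0, at 0.008 for IL-4 and -0.046 for LPS, in the library labelled FLASH M1 replicate 1. The labels were kept, and each result on irradiated cells is given for all 27 libraries as labelled and for the 22 libraries alone.

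The members themselves showed the same conflict. Retnla was at 848 CPM in the library labelled FLASH M0 replicate 1 and at 1081 CPM in the library labelled standard M1 replicate 1, where the other libraries of those groups held 13.6 to 26.5 CPM. It was at 17.7 and 20.2 CPM in the libraries labelled FLASH M2 replicate 1 and standard M2 replicate 1. All 6 members were at their highest within their labelled group in those first 2 libraries, and at their lowest in the other 2.

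**Figure D1:**
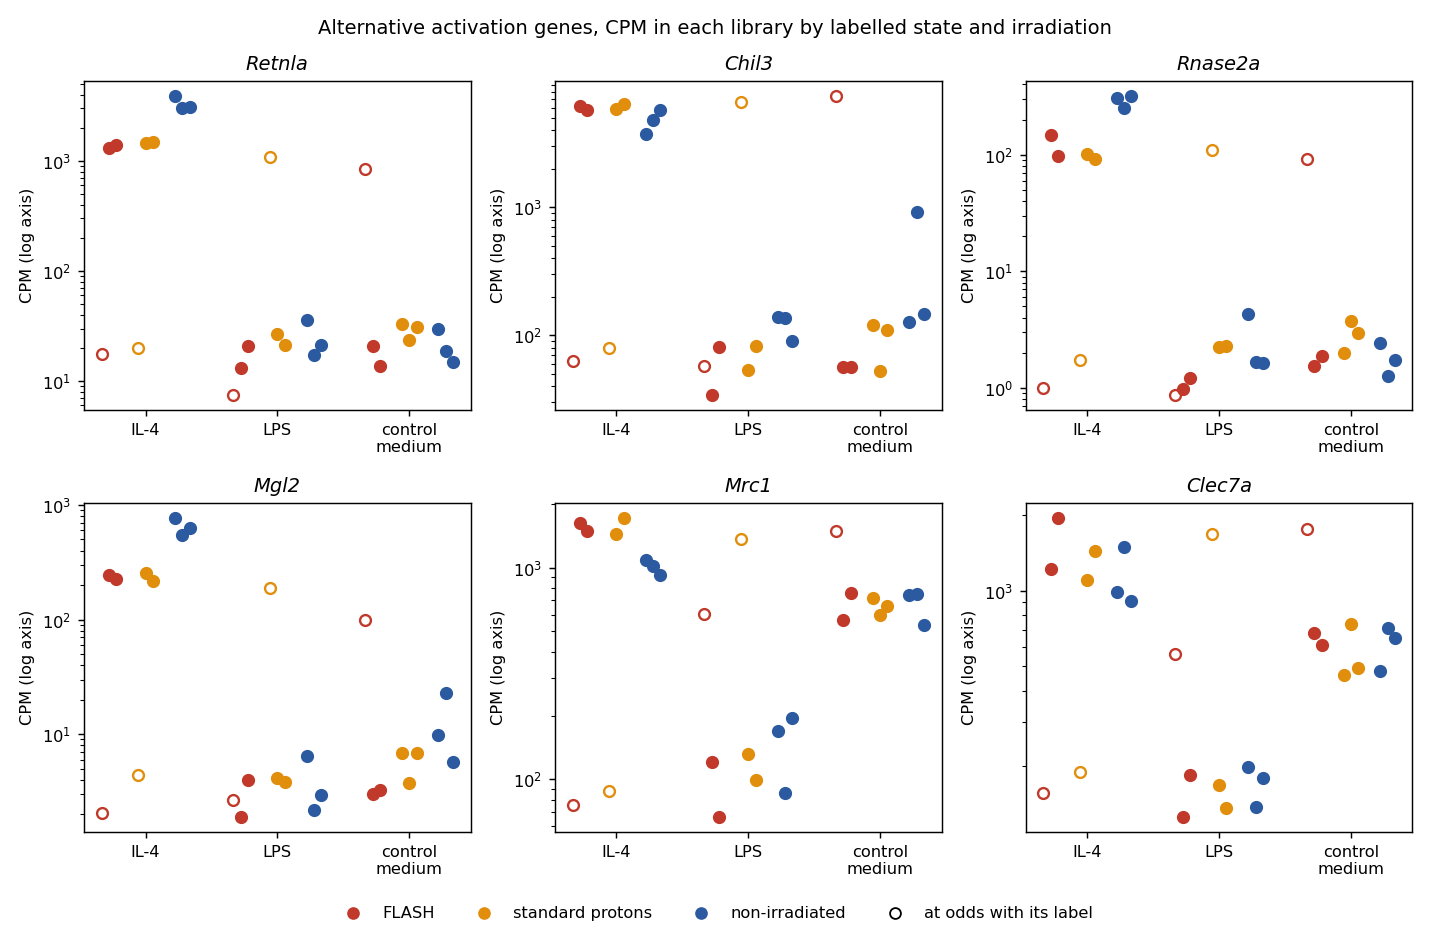
CPM of each member in each library on a log axis, grouped by labelled state (IL-4, LPS, control medium) and, from left to right within a state, by FLASH, standard and no irradiation. Filled points follow their label and open points are the 5 libraries at odds with it. The 3 non-irradiated IL-4 libraries of Retnla sit at 3007 to 3892 CPM, above every other library.

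In non-irradiated macrophages, IL-4 raised 5 of the 6 members. Against control medium, Retnla rose by 159-fold and Rnase2a by 129-fold, Mgl2 and Chil3 rose by 56.2-fold and 18.1-fold, and Clec7a rose by 1.82-fold. Mrc1 did not pass the test. Across all genes tested, 8.99% were called higher (limma on log2(CPM + 0.5), Benjamini-Hochberg adjusted p below 0.05, the rule for every call here). The median log2 fold change was 4.99 for the members and -0.01 for all genes.

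Among the secreted proteins, Retnla was at 3892, 3007 and 3064 CPM in IL-4, against 29.6, 18.9 and 14.9 CPM in control medium. The 2 groups were far apart, and the log2 fold change was 7.31 with a standard error of 0.30 (adjusted p = 3.7e-06). Rnase2a was at 307, 253 and 319 CPM in IL-4, against 2.42, 1.27 and 1.74 CPM in control medium. Its libraries were as clearly separated, with a log2 fold change of 7.01 ± 0.32 (SE, adjusted p = 4.1e-06). Chil3 was at 3716, 4810 and 5771 CPM in IL-4, against 127, 923 and 147 CPM in control medium. The second control library was high, which widened the error of its log2 fold change of 4.18 ± 0.63 (SE, adjusted p = 0.0024), but it stayed under every IL-4 library.

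Among the lectins, Mgl2 was at 769, 543 and 632 CPM in IL-4, against 9.86, 22.7 and 5.70 CPM in control medium. The same second control library was the highest of the 3 for Mgl2, and the log2 fold change was 5.81 ± 0.47 (SE, adjusted p = 0.00012). Clec7a was at 992, 1488 and 909 CPM in IL-4, against 479, 710 and 650 CPM in control medium, a log2 fold change of 0.87 ± 0.22 (SE, adjusted p = 0.026). Mrc1 was at 1083, 1021 and 920.0 CPM in IL-4, against 745, 752 and 535 CPM in control medium, and its log2 fold change of 0.59 ± 0.27 (SE) did not pass (adjusted p = 0.17). For both of these lectins every IL-4 library was above every control library. The Clec7a call was lost when control replicate 1 or 3 or IL-4 replicate 2 was left out (log2 fold changes 0.65 to 0.92, adjusted p = 0.056 to 0.082).

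LPS lowered the lectins and left the secreted genes without a call. The lectins Mrc1, Clec7a and Mgl2 fell, 3 of 6 members, where 13.2% of all genes were called lower. Mrc1 was at 169, 86.4 and 196 CPM in LPS, well under its control-medium libraries, and its log2 fold change was -2.23 ± 0.27 (SE, adjusted p = 0.00038). Clec7a was at 198, 138 and 180 CPM in LPS, also under every control library, with a log2 fold change of -1.83 ± 0.22 (SE, adjusted p = 0.00035). Mgl2 was at 6.47, 2.16 and 2.97 CPM in LPS, which overlapped control medium at its edge, and its log2 fold change was -1.51 ± 0.47 (SE, adjusted p = 0.039). The Mgl2 call was lost when control replicate 1 or 2 or LPS replicate 2 or 3 was left out (adjusted p = 0.080 to 0.13).

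Marker lists differed between the same LPS and control-medium libraries. Dendritic cell markers summed to 600.2 to 963 CPM in LPS, against 1528 to 2284 CPM in control medium. Mitochondrially encoded genes summed to 4968 to 5615 CPM in LPS, against 11320 to 12520 CPM in control medium, and neutrophil and precursor markers to 387 to 539 CPM, against 673 to 1281 CPM. Monocyte markers were higher, at 1311 to 1339 CPM in LPS against 366 to 682 CPM in control medium, as were T and NK cell markers, at 42.7 to 59.2 CPM against 3.30 to 7.90 CPM. Single genes weigh heavily in both sums. Over the 27 libraries Gzmb reached 42.7 CPM, while Cd3e never exceeded 1.27 CPM and Ncr1 0.629 CPM. Ms4a4c reached 1007 CPM and Fn1 3246 CPM, while Ly6c2 never exceeded 95.7 CPM and Ccr2 45.5 CPM. Macrophage core genes overlapped, at 49870 to 71030 CPM in LPS and 57230 to 60750 CPM in control medium. Their part in the lower lectin values was not tested.

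The secreted genes were not called with LPS. Retnla was at 36.0, 17.1 and 21.4 CPM in LPS and Rnase2a at 4.28, 1.66 and 1.62 CPM, ranges that overlapped those of control medium, with log2 fold changes of 0.22 and 0.31 (adjusted p = 0.64 and 0.52). Chil3 was at 138, 136 and 90.4 CPM in LPS, near the lower control libraries, and its log2 fold change of -1.11 carried a 95% interval of -2.52 to 0.30 (adjusted p = 0.22).

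Set directly against LPS, IL-4 gave higher levels of all 6 members, where 18% of all genes were called higher. The log2 fold changes were 7.09 for Retnla, 5.29 for Chil3, 6.71 for Rnase2a and 7.32 for Mgl2, and 2.82 for Mrc1 and 2.69 for Clec7a. This comparison shares its IL-4 libraries with the one above. For Mrc1, mean levels ran 1008 ± 82.3 CPM in IL-4, 150 ± 57.0 in LPS and 677 ± 124 in control medium (SD, n = 3 each). For Clec7a they ran 1130 ± 313, 172 ± 31.03 and 613 ± 120 CPM in the same states (SD, n = 3 each). For Retnla the means of 24.8 ± 9.92 CPM in LPS and 21.1 ± 7.59 CPM in control medium lay within their spread, far under 3321 ± 496 CPM in IL-4 (SD, n = 3 each).

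The genes around the members responded unevenly. With IL-4, 2377 of all 13297 genes tested were called, 1196 of them higher and the rest lower. Of 45 other IL-4 response genes tested, 31 rose and 1 fell with IL-4 in non-irradiated cells. The largest rises were of Ocstamp, a fusion protein of osteoclasts and giant cells, Arg1, which splits arginine, and the checkpoint ligand Pdcd1lg2, with log2 fold changes of 6.35, 5.65 and 5.35. The receptor subunit gene Il4ra fell, by 0.92 on the log2 scale. Of 17 IL-4 and IL-13 receptor signalling genes, 2 rose, the feedback inhibitors Cish and Socs1, with log2 fold changes of 4.51 and 3.72, and 5 fell.

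Other genes of the members' own families moved in both directions. Of 24 other C-type lectin receptor genes tested, 2 rose with IL-4, Clec4b1 and Clec4a3, and 7 fell, led by Clec4n (Dectin-2), Clec4d and Cd93, with log2 fold changes of -2.54, -2.35 and -2.11. Of 28 genes of Dectin-1 signalling, 4 rose and 11 fell. These counts stand beside the 2377 of all 13297 genes called with IL-4, 1196 of them higher. A list of other ribonuclease A family genes, which also holds the ribonuclease inhibitor Rnh1, had 5 genes tested. Of these, Ear2 rose, with a log2 fold change of 3.5, as did Rnh1, which is not itself a ribonuclease, and Rnase4 fell. Among 5 other chitinase-like and resistin-like genes tested, 1 rose and 1 fell, and the one that fell was Retnlg, with a log2 fold change of -2.04.

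Some members share sequence with relatives, which bears on how reads are assigned. Of the distinct 31-base stretches in Chil3 transcripts, 41.5% also occur in other genes, most of them in Chil4, and Chil4 never exceeded 4.64 CPM. For Mgl2 the share was 22.6%, mostly with Clec10a, whose highest value was 55.3 CPM. The share was 6.36% for Rnase2a, 5.45% for Retnla, 0.53% for Clec7a and 0 for Mrc1.

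Eosinophils express Rnase2a relatives, so their markers stand beside its values. The eosinophil genes Prg3 and Il5ra were at 0 in 17 and 21 of the 27 libraries, and Epx, eosinophil peroxidase, never exceeded 2.57 CPM. The summed 12-gene list, in which Ear2 and Ccr3 were the most abundant, held 154 to 287 CPM in non-irradiated IL-4 libraries and 50.6 to 118 CPM in control medium. Dendritic cell markers summed to 3812 to 4616 CPM in IL-4 and 1528 to 2284 CPM in control medium in non-irradiated cells, with Itgax the most abundant, while Cd209a was at 0 in 14 libraries. In the same non-irradiated cells, macrophage core genes were lower in IL-4, at 33350 to 37760 CPM against 57230 to 60750 CPM in control medium. Neutrophil and precursor markers, Retnlg among them, were lower too, at 116 to 385 CPM against 673 to 1281 CPM, as were B lineage markers, at 33.3 to 67.1 CPM against 118.8 to 150.5 CPM. Monocyte markers, which include the IL-4 response gene Fn1, were higher in IL-4, at 1671 to 3288 CPM against 366 to 682 CPM. Immediate early and heat shock genes were higher, at 2188 to 2332 CPM against 1144 to 1446 CPM. T and NK cell markers were higher, at 9.38 to 25.6 CPM against 3.30 to 7.90 CPM. Mitochondrially encoded genes, stromal markers and mast cell and basophil markers overlapped. The part of these cells and lists in the members' values was not tested.

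Irradiation was examined first in IL-4, where the members are high. With all 27 libraries as labelled, 0 of 6 members were called in either mode, where 1.1% of all genes were called for FLASH and 1.35% for standard protons. The 2 IL-4 libraries at odds with their labels are part of these fits, in which the members' standard errors were 0.91 to 2.02 on the log2 scale. At an unadjusted p below 0.05 stood 1 member for FLASH, Mgl2, and 0 for standard protons. The share of all genes at that unadjusted threshold is not given, here or below, so such counts have no background beside them.

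Among the 22 libraries that follow their labels, Retnla and Rnase2a were lower in irradiated IL-4 cells in both modes. Retnla was at 1306 and 1402 CPM after FLASH and at 1444 and 1497 CPM after standard protons, against 3007 to 3892 CPM without irradiation. The irradiated libraries lay close together and all under the non-irradiated ones. The log2 fold changes were -1.28 ± 0.30 for FLASH and -1.17 ± 0.30 for standard protons (SE, adjusted p = 0.027 and 0.043). Rnase2a was at 147 and 98.3 CPM after FLASH and at 101 and 92.5 CPM after standard protons, against 253 to 319 CPM without irradiation. Again no irradiated library reached the non-irradiated range, and the log2 fold changes were -1.27 ± 0.32 and -1.59 ± 0.32 (SE, adjusted p = 0.033 and 0.011). These are 2 of 6 members in each mode, where 1.17% of all genes were called lower for FLASH and 1.84% for standard protons. Both modes were set against the same non-irradiated libraries, here and in the other states, so their results are not independent of each other.

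Mgl2 had point estimates of like size and larger error. It was at 244 and 226 CPM after FLASH and at 257 and 218 CPM after standard protons, against 543 to 769 CPM without irradiation. The irradiated libraries all lay under the non-irradiated ones, FLASH and standard protons overlapped each other, and the log2 fold changes were -1.45 ± 0.45 and -1.44 ± 0.45 (SE), neither past the threshold (adjusted p = 0.093 and 0.096).

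The remaining members had positive estimates, none of them called. Chil3 was at 6210 and 5814 CPM after FLASH and at 5906 and 6483 CPM after standard protons, against 3716 to 5771 CPM without irradiation. All 4 irradiated libraries were above that range, the lowest by little. Its log2 fold changes were 0.36, with a 95% interval of -0.94 to 1.66, and 0.40, with an interval of -0.90 to 1.70. Mrc1 was at 1625 and 1482 CPM after FLASH and at 1434 and 1716 CPM after standard protons, all above the 920.0 to 1083 CPM without irradiation. Its log2 fold changes were 0.63 and 0.64 (adjusted p = 0.28 and 0.26). Clec7a was at 1225 and 1949 CPM after FLASH and at 1108 and 1442 CPM after standard protons, which overlapped the 909 to 1488 CPM without irradiation. With all 27 libraries the estimates for these 3 genes had the opposite sign.

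**Figure D2:**
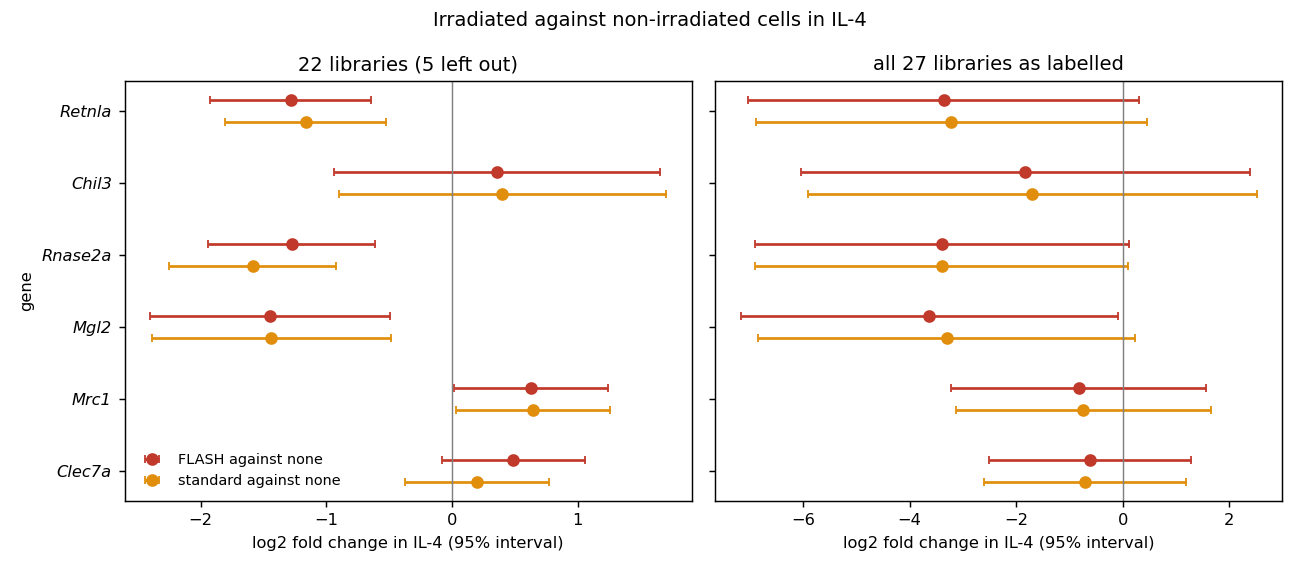
Log2 fold change of each member in IL-4, FLASH and standard protons against no irradiation, with 95% intervals from limma. The left panel uses the 22 libraries that follow their labels and the right panel all 27, on different scales. Retnla, Rnase2a and Mgl2 lie under 0 in both panels, while Chil3, Mrc1 and Clec7a change side between them.

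The average of both modes against no irradiation in IL-4 was added after seeing the data. With 22 libraries it called 3 of 6 members lower, where 3.07% of all genes were called lower, and with all 27 libraries it called 0, where 3% were called. The log2 fold changes were -1.23 for Retnla, with a 95% interval of -1.76 to -0.69, -1.43 for Rnase2a and -1.44 for Mgl2 (adjusted p = 0.0077, 0.0033 and 0.029). When each of the 7 IL-4 libraries was left out in turn, Retnla and Rnase2a stayed called in 7 of 7 fits and Mgl2 in 1 of 7. Mgl2 kept its call when non-irradiated replicate 2 was left out. For the single modes more calls were lost. Where a fit leaves an arm with 1 library, here and in the fits below, that library is assumed to vary like the other groups. For FLASH, Retnla stayed called in 2 of 5 fits, those without non-irradiated replicate 2 or 3, and Rnase2a in 1 of 5, that without non-irradiated replicate 2. For standard protons, Retnla stayed called in 0 of 5 fits and Rnase2a in 3 of 5, those without a non-irradiated library. The estimates ran from -1.35 to -1.17 and from -1.23 to -1.05 for Retnla and from -1.56 to -0.99 and from -1.69 to -1.52 for Rnase2a, after FLASH and standard protons in that order.

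Other genes were read in the same libraries. The IL-4 axis, which holds none of the members, lay at 0.813 and 0.842 in FLASH and at 0.794 and 0.846 in standard-proton IL-4 libraries, against 0.99 to 1.01 without irradiation. The LPS axis lay at 0.762 and 0.867 in FLASH and at 0.753 and 0.748 in standard-proton LPS libraries, against 0.958 to 1.057 without irradiation. Both axes use genes picked for their rise in the same non-irradiated libraries that set the value 1, so lower positions in other libraries are partly built in. Of 45 other IL-4 response genes, 7 fell and 2 rose under the average of both modes with 22 libraries. The falls were led by the eosinophil-attracting chemokine Ccl24, the fusion gene Dcstamp and Pdcd1lg2, with log2 fold changes of -2.46, -2.02 and -1.65, and the rises were of the transferrin receptor Tfrc (1.43) and the fatty acid receptor Cd36 (0.63). Of 24 other C-type lectin receptor genes, Clec4d, Cd302 and Colec12 rose and Clec4b1 fell. With all 27 libraries as labelled, 0 rose and 1 fell of the IL-4 response genes, and 0 of the lectin genes were called.

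Marker lists also differed between these IL-4 libraries. Dendritic cell markers summed to 1985 to 2639 CPM after FLASH and 1928 to 2395 CPM after standard protons, against 3812 to 4616 CPM without irradiation. Macrophage core genes summed to 53370 to 58400 CPM after FLASH and 49740 to 54650 CPM after standard protons, against 33350 to 37760 CPM without irradiation. Mitochondrially encoded genes summed to 13570 to 13870 CPM after FLASH and 12640 to 14370 CPM after standard protons, against 9414 to 11940 CPM without irradiation. That sum also differed between LPS and control medium without irradiation, and whether it reflects RNA quality was not tested. Immediate early and heat shock genes summed to 1942 to 2056 CPM after FLASH and 1895 to 2143 CPM after standard protons, against 2188 to 2332 CPM. These sums did not overlap between irradiated and non-irradiated libraries. Nor did those of neutrophil and precursor markers, at 67.8 to 91.6 CPM after FLASH and 54.9 to 69.7 CPM after standard protons against 116 to 385 CPM. B lineage markers stood at 7.52 to 18.2 CPM after FLASH and 11.3 to 23.9 CPM after standard protons, against 33.3 to 67.1 CPM. T and NK cell markers and mast cell and basophil markers also summed lower after irradiation, each at no more than 25.6 CPM in any of these libraries. Eosinophil, monocyte and stromal markers overlapped, with eosinophil sums of 189 to 284 CPM after FLASH, 177 to 243 CPM after standard protons and 154 to 287 CPM without irradiation. The part of these differences in the members' values was not tested.

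**Figure D3:**
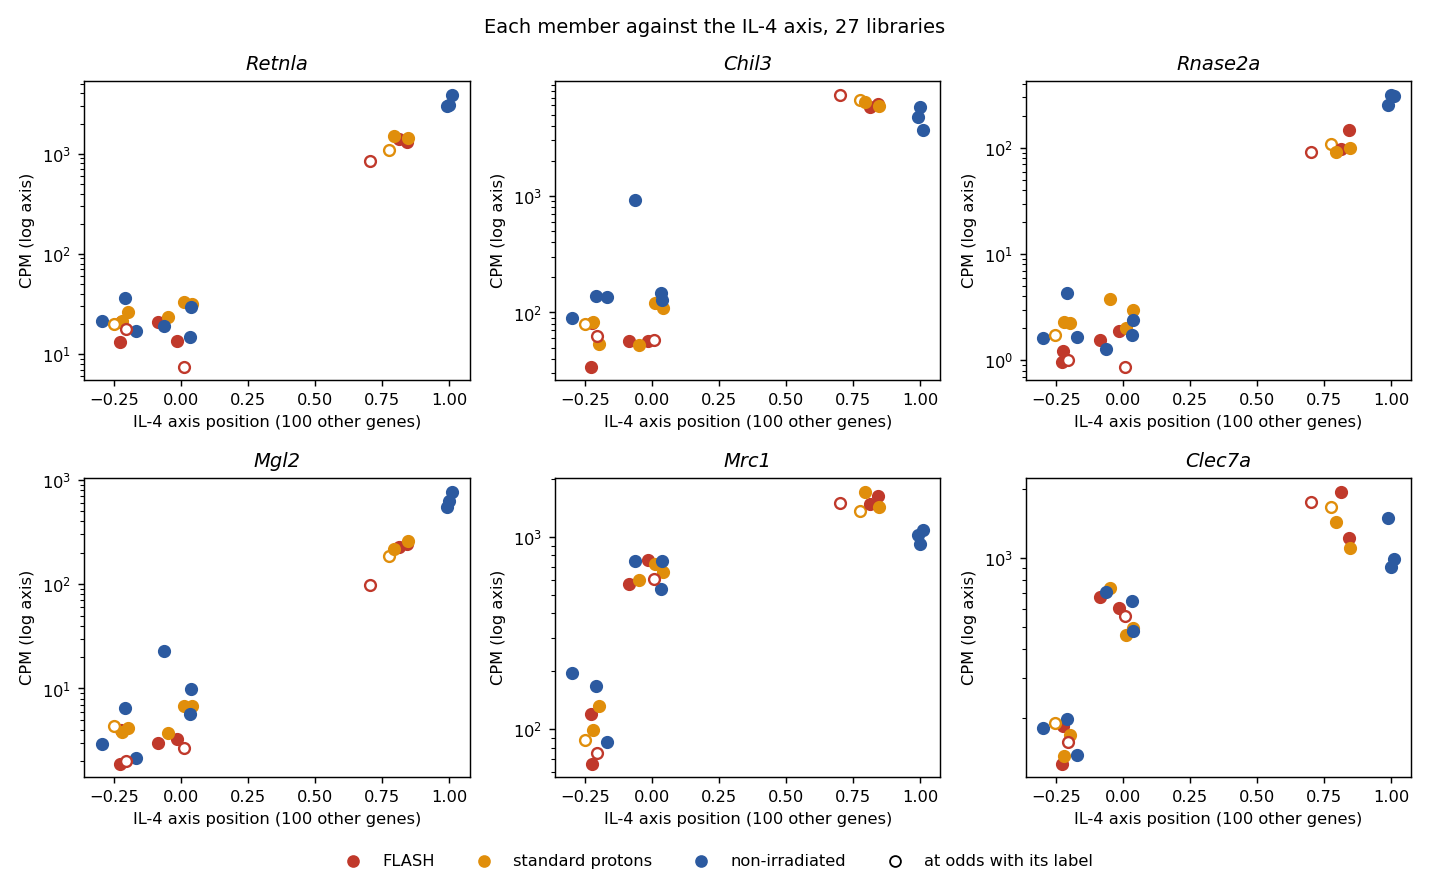
CPM of each member on a log axis against the library's position on the IL-4 axis, for all 27 libraries coloured by irradiation, with open points for the 5 at odds with their labels. Retnla, Rnase2a and Mgl2 follow the axis up to the non-irradiated IL-4 libraries at 0.99 to 1.01, while Chil3, Mrc1 and Clec7a have their highest values in irradiated libraries to the left of those.

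In control medium, 0 members were called with all 27 libraries, where 2.11% of all genes were called for FLASH and 2.02% for standard protons. Among the 22 libraries, Chil3 and Mgl2 were lower after FLASH, 2 of 6 members, where 2.88% of all genes were called lower. Chil3 was at 56.5 and 56.6 CPM after FLASH and at 121, 52.4 and 110 CPM after standard protons, against 127, 923 and 147 CPM without irradiation. Every irradiated library was under the non-irradiated ones, and the log2 fold changes were -2.19 ± 0.61 and -1.54 ± 0.55 (SE, adjusted p = 0.049 and 0.099). Mgl2 was at 3.03 and 3.27 CPM after FLASH and at 6.81, 3.77 and 6.82 CPM after standard protons, against 9.86, 22.7 and 5.70 CPM without irradiation. The FLASH libraries were the lowest and standard protons overlapped no irradiation, with log2 fold changes of -1.65 ± 0.45 and -0.90 ± 0.40 (SE, adjusted p = 0.043 and 0.18). For standard protons 0 members were called, where 7.36% of all genes were.

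These calls leaned on single libraries. Leaving out each library in turn kept Chil3 called for FLASH in 2 of 5 fits, those without non-irradiated replicate 1 or 3, and Mgl2 in 1 of 5, that without non-irradiated replicate 3. Without non-irradiated replicate 2, the library high in both, Chil3 gave -1.27 and Mgl2 -1.14 (adjusted p = 0.075 and 0.11). The average of both modes, added after seeing the data, called both genes lower (log2 fold changes -1.86 and -1.27, adjusted p = 0.024 and 0.033), where 5.99% of all genes were called lower. It too lost both calls without non-irradiated replicate 2 (-0.95 and -0.76, adjusted p = 0.086 and 0.16), and without either FLASH library. Mgl2 lost its call without non-irradiated replicate 1 or standard replicate 2 as well, and so stayed called in 3 of 8 fits, and Chil3 in 5 of 8. The non-irradiated control library with 923 CPM of Chil3 and 22.7 CPM of Mgl2 also had the highest sum of neutrophil and precursor markers in its group, 1281 CPM. Replicate 3 of that group was near it, at 1044 CPM, with only 147 CPM of Chil3 and 5.70 CPM of Mgl2. The first library also had the highest dendritic cell, eosinophil, and mast cell and basophil sums of its group, and the lowest monocyte and stromal sums. Neutrophil and precursor markers summed to 78.1 to 113 CPM after FLASH and 76.9 to 127 CPM after standard protons, against 673 to 1281 CPM without irradiation. Dendritic cell markers summed to 608 to 979 and 667 to 864 CPM after FLASH and standard protons, against 1528 to 2284 CPM. Their part in the lower Chil3 and Mgl2 was not tested. Retnla, Rnase2a, Mrc1 and Clec7a had log2 fold changes between -0.26 and 0.56 in control medium with 22 libraries, none of them called.

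In LPS, 0 members were called in either mode. That held with all 27 libraries, where 2.53% of all genes were called for FLASH and 2.6% for standard protons, and with 22 libraries, where 4.84% and 5.52% were called. With 22 libraries and an unadjusted p below 0.05 stood 2 members for FLASH, Rnase2a and Mrc1, and 0 for standard protons. Rnase2a was at 0.969 and 1.21 CPM after FLASH, under the 1.62 to 4.28 CPM without irradiation, a log2 fold change of -0.82 (adjusted p = 0.16). Mrc1 was at 121 and 66.3 CPM after FLASH, against 86.4 to 196 CPM, a log2 fold change of -0.66 (adjusted p = 0.22).

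Averaged over the 3 states with equal weight and 22 libraries, FLASH lowered Mgl2, Rnase2a and Retnla, 3 of 6 members, where 6.96% of all genes were called lower. The log2 fold changes were -1.13, -0.71 and -0.68 (adjusted p = 0.0080, 0.014 and 0.014). This average reuses the libraries of the single states, which were uneven. In control medium, LPS and IL-4, Rnase2a had -0.04, -0.82 and -1.27 and Retnla -0.26, -0.51 and -1.28, each called only in IL-4. Mgl2 had -1.65, -0.29 and -1.45, called only in control medium. Mgl2 stayed called in 15 of 15 fits that left out a library, Rnase2a in 14 and Retnla in 13. Rnase2a lost its call without FLASH M2 replicate 3 (-0.61, adjusted p = 0.060), and Retnla without FLASH M0 replicate 3 or FLASH M1 replicate 2 (-0.58 each, adjusted p = 0.059 and 0.060). For standard protons 0 members were called, where 17.9% of all genes were called, and Mgl2 came nearest with a log2 fold change of -0.72 (adjusted p = 0.056). With all 27 libraries 0 members were called in either mode, where 7.72% and 7.88% of all genes were called for FLASH and standard protons.

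FLASH and standard protons were also set against each other. In IL-4, 0 of 6 members and 0% of all genes were called by limma, with all 27 or with 22 libraries, and 0 members had an unadjusted p below 0.05. With 22 libraries the log2 differences ran from -0.12 for Retnla, with a 95% interval of -0.82 to 0.58, to 0.31 for Rnase2a, with an interval of -0.41 to 1.04. The widest interval was that of Chil3, -1.47 to 1.38, so a difference of over 2-fold between modes is inside what these libraries allow. Averaged over states, 0 members and 0% of all genes were called as well, and with 22 libraries 1 member had an unadjusted p below 0.05, Retnla, with a log2 difference of -0.47 (adjusted p = 0.54).

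The response to IL-4 could be read in the irradiated cells only from libraries that follow their labels. With all 27 libraries as labelled, 0 members were called in FLASH cells, where 0% of all genes were called, and 0 in standard-proton cells, where 0.474% were called. With 22 libraries all 6 members were called higher in each, where 6.32% of all genes were called higher for FLASH and 7% for standard protons. Libraries had been left out by their position on a set of IL-4 genes, so this describes the libraries that follow their labels. The log2 fold changes for Retnla were 6.28 after FLASH and 5.64 after standard protons, against 7.31 without irradiation. Those for Rnase2a were 5.77 and 4.86, against 7.01, and those for Mgl2 were 6.01 and 5.28, against 5.81. Those for Chil3 were 6.72 and 6.12, against 4.18. The last value rose to 5.09 when the non-irradiated control library at 923 CPM of Chil3 was left out.

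For the abundant lectins the response was small in every arm. Mrc1 had log2 fold changes of 1.24 and 1.25 after FLASH and standard protons, both called (adjusted p = 0.017 and 0.0074), against 0.59 without irradiation, which was not called. Clec7a had 1.27 and 1.19, against 0.87, all 3 called. When a library was left out, Mrc1 stayed called in 1 of 4 fits after FLASH and 4 of 5 after standard protons, and Clec7a in 2 of 4 and 4 of 5. Each of the FLASH fits left 1 arm with a single library. For standard protons, both calls were lost without M2 replicate 3 (adjusted p = 0.085 and 0.093).

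**Figure D4:**
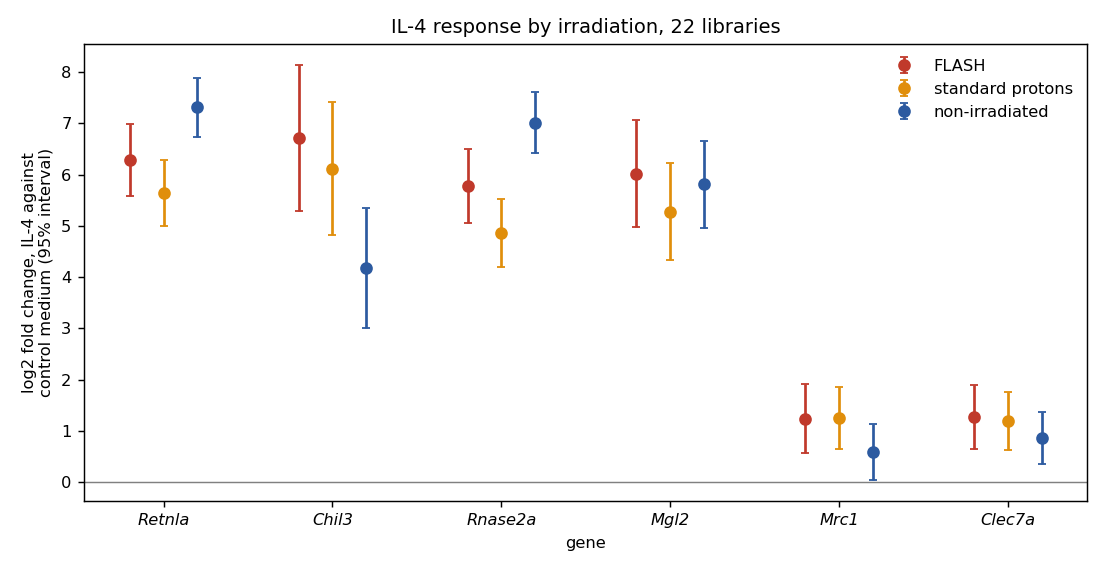
Log2 fold change of each member, IL-4 against control medium, in FLASH, standard-proton and non-irradiated cells, with 95% intervals from limma over the 22 libraries that follow their labels. Retnla and Rnase2a sit lower in the irradiated arms and Chil3 higher, while the differences between arms did not pass the test.

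The difference between arms was tested as an interaction, and 0 members passed with all 27 or with 22 libraries, where 0% of all genes were called in either mode with all 27. With 22 libraries the IL-4 response of Rnase2a differed by -1.24 after FLASH and by -2.15 after standard protons on the log2 scale (adjusted p = 0.62 and 0.11). With replicates 2 and 3 of every group only, 18 libraries, the standard-proton difference of Rnase2a was -2.50 and passed (adjusted p = 0.027), where 0.0226% of all genes were called. For Retnla the differences were -1.02 and -1.67 (adjusted p = 0.71 and 0.26). Chil3 had the opposite sign, 2.54 and 1.94 (adjusted p = 0.59 and 0.60), and its lower irradiated control-medium libraries enter that difference. So does the non-irradiated control library at 923 CPM of Chil3, without which the differences were 1.63 and 1.02. At an unadjusted p below 0.05 stood 3 members in each mode with 22 libraries, and 1 for FLASH and 0 for standard protons with all 27. No share of all genes at that threshold stands beside these counts. With 22 libraries, 0% of all genes were called for FLASH and 0.0226% for standard protons.

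The same comparisons were made with replicates 2 and 3 of every group, which leaves out each library at odds with its label and every other replicate 1. For FLASH, 1 member was called in control medium, Chil3, where 3.37% of all genes were called, 2 in IL-4, Retnla and Rnase2a, where 1.14% were, and 2 over states, Rnase2a and Mgl2, where 9.71% were. For standard protons, Rnase2a was called in IL-4, where 0.887% of all genes were called, and in control medium, higher, where 2.77% were. The average of both modes called 2 members in IL-4, where 2.84% of all genes were called, and 1 in control medium, where 5.57% were. All 6 members were called for the response to IL-4 in each irradiated arm, where 10.3% of all genes were called after FLASH and 10.9% after standard protons. Without irradiation, Clec7a lost its call with IL-4 (adjusted p = 0.16) and Mrc1 again had none (adjusted p = 0.40). Chil3 passed narrowly there (adjusted p = 0.0498), and Mgl2 lost its call with LPS (adjusted p = 0.076). The share of all genes called in these non-irradiated fits is not given.

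The members fell into 2 sets by how they moved across the 27 libraries. These correlations are descriptions, and the libraries share states, scaling and, in part, title codes. Retnla and Rnase2a had r = 0.993 on the log2 scale, Retnla and Mgl2 0.978, and Retnla and Chil3 0.944. Mrc1 and Clec7a had r = 0.953 with each other and 0.675 and 0.744 with Retnla. The secreted genes and Mgl2 were high in IL-4 and low in both other states, while Mrc1 and Clec7a were highest in IL-4 and lowest in LPS.

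The genes most like each member were ranked by the same correlation over 27 libraries. After Rnase2a, those nearest to Retnla were Ocstamp (r = 0.991), Ap2m1 (0.983), Flt1 (0.982) and Il31ra (0.978). Chil3 was nearest to Irf4 (0.976), a transcription factor induced by IL-4, followed by Mgl2, Kcnd3 (0.957), Arg1 and Il31ra (0.952 each). Rnase2a was nearest to Retnla, Ocstamp (0.987), Ap2m1 (0.984), Flt1 (0.98) and Inpp5a (0.976), and Mgl2 to Retnla, Shisa2 (0.978), Ocstamp (0.976), Rnase2a and Fosl2 (0.972). Mrc1 was nearest to Tspan14 (0.983), Abcd2 (0.978), Atp6v0d2 (0.972), Cd300lb and Dnase2a (0.969 each), and Clec7a to Abcd2 (0.981), Fig4 (0.975), Mrc1, Egr2 (0.952) and Inf2 (0.949). Abcd2 was the gene that the lists of Mrc1 and Clec7a had in common beyond the members themselves.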

How the data were processed

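The data are 27 RNA sequencing libraries of cultured macrophages, 3 in each of 9 groups. The deposited table gives signal as CPM after between-library scaling, with column sums of 929399.7 to 1072727.2. The submitters' processing notes name kallisto 0.46.1, R 4.0.5 and edgeR 3.36.0 with the build GRCh38, a human build, so no coordinate was taken from the table. A single entry without a symbol (0.0048 to 0.008% of signal) was left out. Because under 95% of low values were whole multiples of the estimated value of 1 read (87.04 to 93.67% within 0.01 read), no count model was run.

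Values were tested as log2(CPM + 0.5) with limma 3.58.1 (trend, robust; R 4.3.3, statmod 1.5.0) in genes at 1 CPM or more in at least 3 libraries. Comparisons without irradiation used the 9 non-irradiated libraries, and irradiation comparisons used all 27 as labelled, with the 22 that follow their labels beside them. A library was at odds with its label when it lay under 0.5 on the axis its label names or above 0.5 on another. P-values were adjusted over all 13297 genes, and the procedure was tested on simulated data. Intervals are 95%.

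The members and the gene lists were chosen with earlier results of these data known. The text names the members, up to 3 called genes in each direction of each pathway list with a mean of 5 CPM or more, and the 5 genes most correlated with each member. Libraries with the same replicate number share a code in their titles, whose meaning the labels do not give. Deviations of same-numbered libraries correlated at -0.13 to 0.10 in the non-irradiated comparisons, so the numbers were not treated as pairs. In FLASH against standard protons in IL-4 they correlated at 0.46 to 0.78, and the fit with replicate number as a block called 0 members and 0 genes there, as did the fit without it. That correlation takes in the replicate 1 library of both groups, each at odds with its label and high on the LPS axis (0.869 and 0.857). Shared 31-base stretches were counted in GENCODE M21 transcripts. Alternatives were other pseudocounts, filters, scaling, variance moderation and libraries, the replicate block, and leaving out each library.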

Additional observations from a re-analysis of the deposited data

How the results depend on the processing

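The calls depended most on which libraries entered. In the fit of all 27 libraries, whose shared spread includes the 5 libraries at odds with their labels, IL-4 against control medium without irradiation kept 3 calls and LPS kept 0. The share of all genes called in that fit is not given for these 2 comparisons. Whether the loss of calls is particular to the members therefore cannot be read from these counts. Without the 5 libraries, members called numbered 2 for FLASH in control medium, 2 for FLASH in IL-4, 3 for FLASH over states, 2 for standard protons in IL-4, 6 for the IL-4 response in each irradiated arm, and, for the average of both modes, 3 in IL-4 and 2 in control medium. With replicates 2 and 3 only, the same counts were 1, 2, 2, 1, 6, 2 and 1, with 1 for standard protons in control medium (Rnase2a, 0.95) and 1 for the interaction of standard protons with IL-4 (Rnase2a).

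Signs also turned on the libraries. In IL-4, against negative values in all 27 libraries, the log2 fold changes for FLASH, standard protons and both modes were 0.36, 0.40 and 0.38 for Chil3, 0.63, 0.64 and 0.63 for Mrc1 and 0.49, 0.20 and 0.34 for Clec7a without the 5 libraries. With replicates 2 and 3 only they were 0.19, 0.23 and 0.21 for Chil3, 0.68, 0.69 and 0.69 for Mrc1 and 0.41, 0.12 and 0.27 for Clec7a. Chil3 after FLASH in control medium turned to -2.19 and -2.70 under these 2 settings. The IL-4 response after FLASH turned to 1.24 for Mrc1 and 1.27 for Clec7a under both, and after standard protons to 1.25 and 1.32 for Mrc1. The interaction of Chil3 turned to 2.54 and 2.89 for FLASH, 1.94 and 2.50 for standard protons, and 2.24 and 2.70 for both modes. Mgl2 after FLASH in control medium was 0.079 with a pseudocount of 2.

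Leaving out 1 library at a time changed the sign of 55 of 120 estimates (6 members in 20 comparisons), 0 of which were called with all their libraries. The 12 of FLASH against standard protons are among them. In IL-4 against none, Chil3 ran from -2.94 to 0.36 for FLASH and -2.78 to 0.40 for standard protons, Mrc1 from -1.58 to 0.63 and -1.50 to 0.64, and Clec7a from -1.33 to 0.49 and -1.26 to 0.20. In control medium, Chil3 ran from -2.19 to 1.33 for FLASH and -1.86 to 0.23 for both modes, and Mgl2 from -1.65 to 0.76 and -1.28 to 0.031. The IL-4 response ran from -1.36 to 0.85 for Mrc1 and -1.03 to 0.78 for Clec7a after FLASH, and from -0.88 to 1.25 and -0.26 to 1.19 after standard protons. The interaction of Chil3 ran from -3.16 to 0.36 for FLASH, -1.24 to 1.94 for standard protons and -1.99 to 0.10 for both modes. Over states, standard protons gave -1.36 to 0.079 for Chil3, -0.90 to 0.39 for Retnla and -0.95 to 0.24 for Rnase2a. With LPS, Retnla ran from -0.083 to 0.48 and Rnase2a from -0.081 to 0.51. The number of members called ran from 4 to 5 for IL-4 and from 2 to 3 for LPS, and the cause of these changes was not tested. With the 5 libraries out, leaving out 1 more added some calls. Chil3 was then called lower for FLASH over states without any one of the non-irradiated control libraries, and for standard protons in control medium and for LPS without the first of them. Mgl2 was called for standard protons over states without non-irradiated control replicate 3 or LPS replicate 2, and Mrc1 for FLASH in LPS without non-irradiated LPS replicate 2 (adjusted p = 0.025).

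The replicate block kept the counts of members called without irradiation, 5 for IL-4, 3 for LPS and 6 for IL-4 against LPS, and with all 27 libraries it left the irradiation comparisons at 0. With 22 libraries, where the block was added after seeing the data, members called were 0 with it and 2 without it for FLASH in control medium, 1 and 2 for FLASH in IL-4 (Rnase2a not called), 2 and 3 for FLASH over states (Rnase2a not called), 2 and 3 for both modes in IL-4 and 1 and 2 for both modes in control medium (Mgl2 not called in either). The other comparisons kept their counts, 2 for standard protons in IL-4 among them. The correlations of same-numbered irradiated and non-irradiated libraries did not meet the rule for pairing. They were taken with the 5 libraries at odds with their labels included. They therefore cannot show that same-numbered libraries, which share a title code, are unpaired. Fewer genes were called with the block in IL-4 against control medium without irradiation, 2096 of all genes with it and 2377 without it. Calls among all genes also fell with the block and 22 libraries. Genes called with and without it were 364 and 704 for FLASH in control medium and 220 and 436 for FLASH in IL-4. They were 1227 and 1902 for FLASH over states and 196 and 449 for standard protons in IL-4. For both modes they were 521 and 918 in IL-4 and 971 and 1460 in control medium. Other pseudocounts, filters, scalings and variance settings kept every count of members called within 1.5 times that of the main fits. For irradiation those fits hold all 27 libraries and called 0 members, so this does not bear on the calls with 22 libraries. Precision is limited by 2 or 3 libraries a group. Counting error is small for abundant members, while Rnase2a and Mgl2 outside IL-4 rest on few CPM.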
